A study of Mus musculus with 2 samples.

Results

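The interleukin 1 (IL-1) family is described here by 10 genes, Il1a, Il1b, Il1f9, Il18, Il1rn, Il1r1, Il1rap, Il1r2, Il18r1 and Nlrp3, out of 27998 genes listed. All 10 symbols were found in both gene lists, and each gene was followed in its sources and receivers by cell class and library. The cells came from parietal bone defects of 2 mm in wild-type C57BL/6 mice, collected 14 days after surgery, with a hydrogel named CGG-Cit in the defect of one group and a hydrogel named CGG in that of the other. The labels do not spell these names out, and do not say how many mice gave each library. Both groups share the strain, the injury, the time point and the digestion in 0.3% collagenase, and no group without a hydrogel was analysed here. Each group is 1 droplet library of single cells, so no difference below has a replicate check, no test was run, and every interval is a 95% interval for counting error only.

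The CGG-Cit library kept 9994 cells with 95785575 unique molecular identifiers (UMIs, counted RNA molecules) and a median of 5913.5 UMIs per cell. The CGG library kept 11048 cells with 82107891 UMIs and a median of 3969. Only 34 barcodes occurred in both, which is 0.315% of the CGG-Cit barcodes and 0.271% of the CGG barcodes. Cells were assigned to classes one by one from marker genes that include no member, and levels are UMIs per 1000000 UMIs of the class (CPM). The libraries differed in make-up: neutrophils were 2692 CGG-Cit cells and 1259 CGG cells, stromal cells 55 CGG-Cit and 3581 CGG cells, macrophages 17 CGG-Cit and 1159 CGG cells, and B-lineage cells 3675 CGG-Cit and 833 CGG cells. No neutrophil, monocyte, macrophage, T cell or stromal marker was at 0 in the class it marks, in either library. Classes under 100 cells in a library are given with their cell number and their levels are given side by side. Where clusters are named, they come from an unsupervised clustering of the same cells.

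As background, IL-1α and IL-1β are ligands that act through the receptor encoded by Il1r1 together with the accessory chain encoded by Il1rap, and they activate NF-κB through MyD88. Il1rn encodes a secreted antagonist that occupies the receptor without signalling, and Il1r2 encodes a decoy receptor that binds the ligands but carries no signalling domain. IL-1β and IL-18 are made as precursors and are cleaved by caspase-1 in inflammasomes, of which NLRP3 is a sensor. In a bone wound, neutrophils, monocytes and macrophages are the classical producers, and stromal cells, endothelial cells and some T cells are classical responders.

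The members lie on 5 chromosomes of GRCm38, the build that matches the submitters' mm10. On chromosome 2 lie Il1a (ENSMUSG00000027399, chr2:129299610-129309972, minus strand), Il1b (ENSMUSG00000027398, chr2:129364570-129371139, minus strand), Il1f9 (ENSMUSG00000044103, chr2:24186476-24193568, plus strand) and Il1rn (ENSMUSG00000026981, chr2:24336853-24351494, plus strand). Chromosome 1 holds Il1r2 (ENSMUSG00000026073, chr1:40074079-40125231), Il1r1 (ENSMUSG00000026072, chr1:40225080-40317257) and Il18r1 (ENSMUSG00000026070, chr1:40465552-40500854), all on the plus strand. Il18 (ENSMUSG00000039217, chr9:50554827-50581840), Nlrp3 (ENSMUSG00000032691, chr11:59541568-59566956) and Il1rap (ENSMUSG00000022514, chr16:26581704-26730117) are also on the plus strand. The annotation lists all 10 as protein coding.

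The sequence before the transcription start is shown for 4 members with most of their CGG-Cit UMIs in neutrophils, whose neutrophil ratios between the libraries ran from near 1 to well below it: the ligands Il1b, Il1a and Il1f9 and the decoy receptor Il1r2. Each is the run of 250 bases upstream of the RefSeq start site on GRCm38.p6, 5′ to 3′ on the gene's own strand, with matches to 4 motifs in capitals.
Il1b: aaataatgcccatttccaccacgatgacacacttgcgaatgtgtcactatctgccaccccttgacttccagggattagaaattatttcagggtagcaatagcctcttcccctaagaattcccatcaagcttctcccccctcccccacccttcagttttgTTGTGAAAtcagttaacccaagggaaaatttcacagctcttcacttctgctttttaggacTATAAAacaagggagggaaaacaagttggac
Il1a: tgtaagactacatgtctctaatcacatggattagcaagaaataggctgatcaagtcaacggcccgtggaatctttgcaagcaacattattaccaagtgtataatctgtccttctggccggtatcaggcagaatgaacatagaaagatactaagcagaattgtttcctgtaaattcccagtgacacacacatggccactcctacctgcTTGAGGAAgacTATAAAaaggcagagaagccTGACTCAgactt
Il1f9: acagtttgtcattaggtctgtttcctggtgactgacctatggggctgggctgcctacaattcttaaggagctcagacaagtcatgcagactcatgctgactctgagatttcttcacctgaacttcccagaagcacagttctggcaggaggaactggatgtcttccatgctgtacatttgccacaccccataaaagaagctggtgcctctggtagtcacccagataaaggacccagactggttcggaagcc
Il1r2: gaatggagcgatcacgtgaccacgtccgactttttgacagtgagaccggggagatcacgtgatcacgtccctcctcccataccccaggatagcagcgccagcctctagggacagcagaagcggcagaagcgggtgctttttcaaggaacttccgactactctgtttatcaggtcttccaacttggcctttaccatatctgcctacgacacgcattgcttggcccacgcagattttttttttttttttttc
The windows are chr2:129371140-129371389 for Il1b, chr2:129309973-129310222 for Il1a, chr2:24186226-24186475 for Il1f9 and chr1:40085843-40086092 for Il1r2, whose RefSeq start lies inside the longer annotated gene. Both strands were searched for AP-1 (TGANTCA), C/EBP (TTNNGNAA), NF-κB (GGGA and TTCC with any 2 bases between them) and the TATA box (TATAAA), which occur in 6.75%, 36.8%, 1.21% and 12.4% of the 32851 promoter windows of the same length in the table. The Il1b window held a C/EBP match, TTGTGAAA, starting 91 bases upstream and a TATA box 31 bases upstream. The Il1a window held a C/EBP match 43 bases upstream, a TATA box 32 bases upstream and an AP-1 match, TGACTCA, 12 bases upstream, none overlapping another. The Il1f9 and Il1r2 windows held none of the 4, and the NF-κB letters were in no member's window. These matches describe letters only.

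Il1b, the gene of the IL-1β precursor, was the most abundant member. All cells together held 37328 Il1b UMIs in the CGG-Cit library (390 CPM) and 32864 in the CGG library (400.3 CPM). In neutrophils its level was 1393 CPM (1377 to 1409) in the CGG-Cit library and 1672 CPM (1645 to 1699) in the CGG library, a log2 ratio of -0.26. The class was then split by maturity, since Il1b was concentrated in cells with late-stage markers. Mature neutrophils held 4879 CPM in 1318 CGG-Cit cells and 5115 CPM in 589 CGG cells, a log2 ratio of -0.068. Immature neutrophils held 221 CPM in 1374 CGG-Cit cells and 439 CPM in 670 CGG cells, 1.99-fold (1.89 to 2.09) lower in the CGG-Cit library. The median mature neutrophil carried 15 Il1b UMIs in both libraries, with quartiles of 4 and 31 in the CGG-Cit library and of 6 and 28 in the CGG library. The library-wide and mature-cell levels of Il1b were thus close between the hydrogels, and the immature-cell levels differed more. The median immature neutrophil carried 0 Il1b UMIs in both libraries, and the top 10% of cells held 80.7% of the immature UMIs in the CGG-Cit library and 70.3% in the CGG library, so few cells carry that level. With size factors set to the median gene ratio in place of total UMIs, which shifts the scale of mature neutrophils by -0.11 (log2), the mature-cell log2 ratio turned to 0.038.

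Monocytes showed a wider gap. Il1b was at 579 CPM (563 to 596) in 698 CGG-Cit monocytes and at 1336 CPM (1306 to 1367) in 587 CGG monocytes, 2.31-fold (2.22 to 2.39) lower in the CGG-Cit library. The median monocyte held 2 Il1b UMIs in the CGG-Cit library and 6 in the CGG library. The monocyte gate also differed in other cell-type markers: macrophage markers summed to 782 CPM in CGG-Cit monocytes and 2259 CPM in CGG monocytes (1 of 12 at 0 in CGG-Cit and 0 in CGG), dendritic markers to 1337 CPM in CGG-Cit and 6540 CPM in CGG, and stromal markers to 19.5 CPM in CGG-Cit and 941 CPM in CGG. Their part in the Il1b difference was not tested. Restricted to cells that also fell in the monocyte clusters, a choice made after seeing the data, Il1b was at 541 CPM in 615 CGG-Cit cells and 1303 CPM in 362 CGG cells, nearly the same gap. The monocyte-gated cells of the macrophage cluster were closer, at 1273 CPM (1174 to 1379) in 59 CGG-Cit cells and 1466 CPM (1405 to 1529) in 182 CGG cells. The wide gap was thus one of the monocyte clusters and not of the whole gate.

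Other myeloid classes held Il1b as well. The 17 CGG-Cit macrophages held 3 Il1b UMIs in all, and 1159 CGG macrophages were at 371 CPM (360 to 382). Conventional dendritic cells held 603 CPM in 27 CGG-Cit cells and 1123 CPM in 124 CGG cells. The mast cell and basophil class, of which 54 CGG-Cit and 17 CGG cells had more basophil than mast cell markers, held 393 CPM in 55 CGG-Cit cells and 1402 CPM in 23 CGG cells. Erythroid cells, which should lack the gene, held 12.9 CPM in CGG-Cit and 14.9 CPM in CGG, and B-lineage cells 20.4 CPM in CGG-Cit and 37.4 CPM in CGG, so the levels in these CGG myeloid classes and in both libraries' monocytes and neutrophils stood far above those in cells that should lack the gene. Stromal cells held 36.4 CPM of Il1b in 55 CGG-Cit cells and 64.7 CPM in 3581 CGG cells, the CGG value lying between those levels. Of the 36 CGG-Cit UMIs, 24 were in 6 cells with at least 3 osteoblast markers, of which 16.7% held any. The other 49 CGG-Cit cells were at 14.2 CPM (7.35 to 24.8), near the erythroid level. In the named stromal clusters Il1b was at 36.8 CPM in 51 CGG-Cit cells and 46.7 CPM in 2301 CGG cells. A low-depth cluster that could not be named held 1067 of the CGG stromal cells, at 288 CPM. Neutrophil markers summed to 3204 CPM in CGG-Cit and 5900 CPM in CGG stromal cells, against 3203 CPM in CGG-Cit and 2064 CPM in CGG B-lineage cells. Their part in stromal Il1b was not tested.

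**Figure D1:**
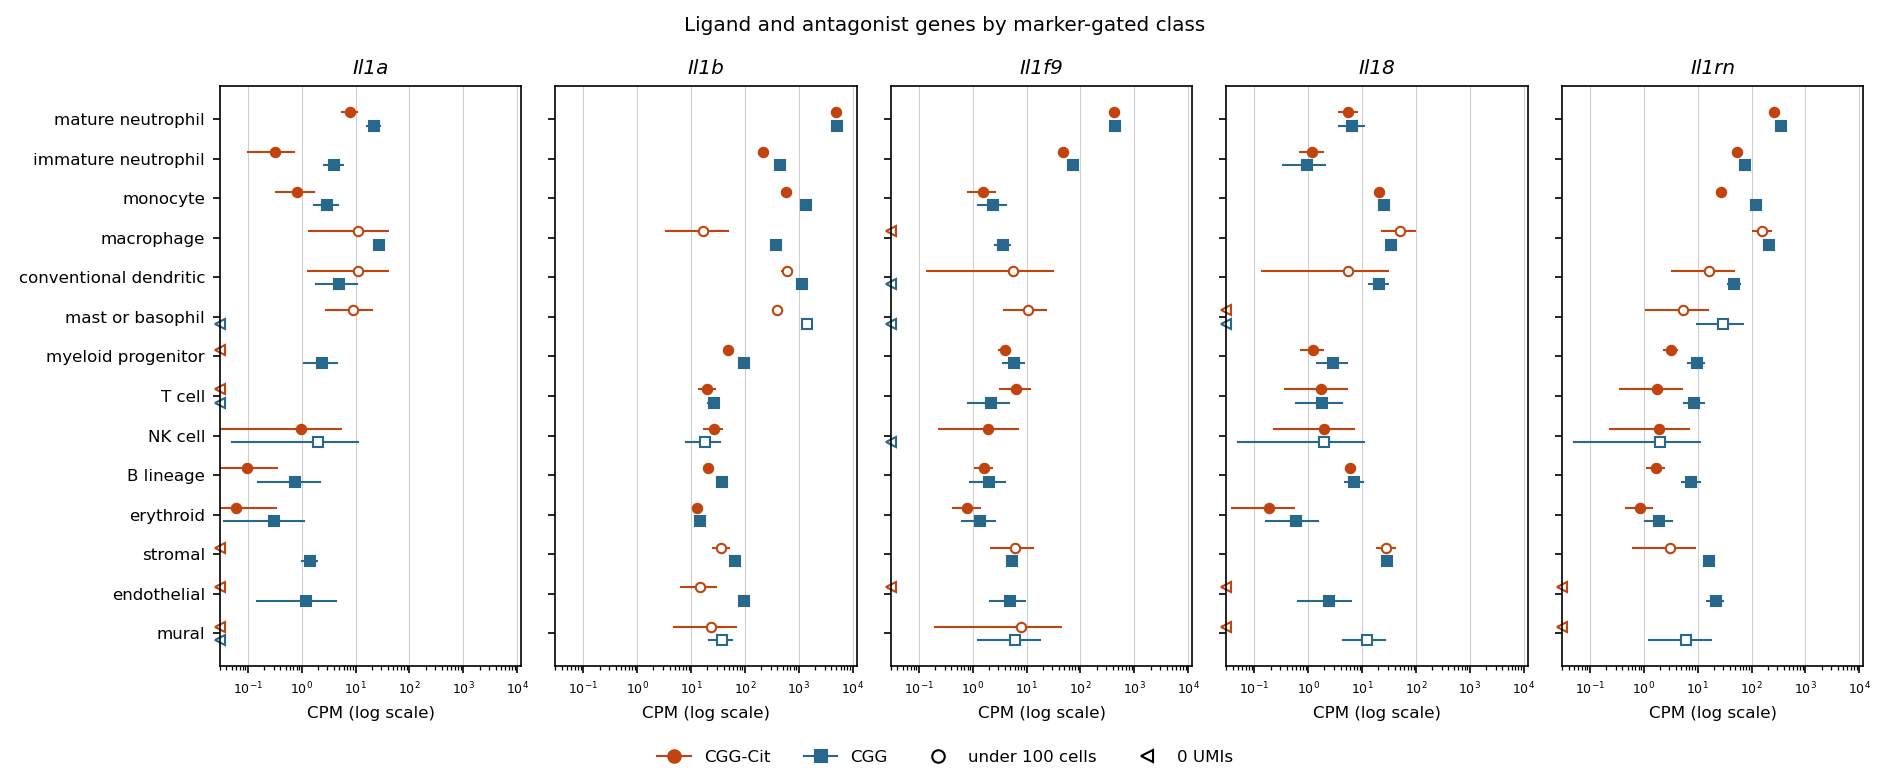
Levels of the 4 ligand genes and of the antagonist gene Il1rn in 14 cell classes, as CPM on a log axis with 95% Poisson intervals (CGG-Cit circles, CGG squares, open where the class has under 100 cells, triangles at the left edge for 0 UMIs). Il1b and Il1f9 peak in mature neutrophils of both libraries, and in monocytes the CGG-Cit points for Il1b and Il1rn lie to the left of the CGG points.

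Il1f9, which encodes the IL-36γ ligand, was the ligand with the largest share of its UMIs in neutrophils. Neutrophils held 94.0% of its UMIs in the CGG-Cit library and 79.4% in the CGG library. Its level in mature neutrophils was 423 CPM (406 to 441) in the CGG-Cit library and 435 CPM (409 to 463) in the CGG library, a ratio of 0.97 (0.90 to 1.05) whose interval includes no difference. In immature neutrophils it was at 47.2 CPM in CGG-Cit and 72.2 CPM in CGG, 1.53-fold (1.36 to 1.72) lower in the CGG-Cit library. Monocytes held 1.53 CPM in CGG-Cit and 2.40 CPM in CGG, near the erythroid 0.79 CPM in CGG-Cit and 1.35 CPM in CGG.

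Il1a, the gene of the second IL-1 ligand, which is active without caspase-1 cleavage, was scarce. There were 67 UMIs in the CGG-Cit library and 496 in the CGG library. The 17 CGG-Cit macrophages held 2 UMIs, and the CGG macrophages 304, at 27.3 CPM (24.4 to 30.6). In mature neutrophils Il1a was at 7.80 CPM (42 UMIs) in the CGG-Cit library and 21.96 CPM (50 UMIs) in the CGG library, 2.82-fold (1.83 to 4.35) lower in the CGG-Cit library. Few cells carried these UMIs. Of the 5 maturity bins described below, the fourth held 6 in CGG-Cit and 24 in CGG, the latter in 3.35% of 209 cells. In the fifth, most mature bin the Il1a ratio was 0.73 (0.42 to 1.31), whose interval includes no difference. Immature neutrophils held 5 UMIs in the CGG-Cit library and 25 in the CGG library. Macrophage markers in mature neutrophils summed to 110 CPM in the CGG-Cit library and 526 CPM in the CGG library, and their part in the Il1a difference was not tested.

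Il18 had another distribution, mostly outside the granulocytes. Stromal cells held 28.3 CPM (18.8 to 40.9) in 55 CGG-Cit cells and 28.96 CPM (27.0 to 31.0) in 3581 CGG cells. Monocytes held 20.3 CPM in CGG-Cit and 25.1 CPM in CGG, a ratio of 0.81 (0.64 to 1.02) whose interval includes no difference. Macrophages held 9 UMIs in 17 CGG-Cit cells and were at 35.0 CPM (31.6 to 38.6) in the CGG library. Stromal cells and macrophages were thus the CGG classes with the most Il18 per UMI. Within the monocyte gate the level was 156 CPM in 59 CGG-Cit cells and 64.6 CPM in 182 CGG cells that fell in the macrophage cluster, against 12.5 CPM in CGG-Cit and 10.1 CPM in CGG cells of the monocyte clusters. B-lineage cells held 5.96 CPM in CGG-Cit and 7.12 CPM in CGG, above the erythroid 0.18 CPM in CGG-Cit and 0.60 CPM in CGG, and neutrophils 2.29 CPM in CGG-Cit and 2.43 CPM in CGG. Stromal Il18 was thus alike in the libraries within its interval, and the CGG-Cit level was the higher one in the monocyte-gated cells of the macrophage cluster.

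Il1rn, the receptor antagonist, was shared by neutrophils and macrophages. In mature neutrophils it was at 259 CPM (245 to 273) in the CGG-Cit library and 353 CPM (329 to 378) in the CGG library, 1.37-fold (1.25 to 1.49) lower in the CGG-Cit library. Macrophages held 158 CPM in 17 CGG-Cit cells and 209.8 CPM (201 to 219) in 1159 CGG cells. Monocytes held 27.2 CPM (23.8 to 31.0) in the CGG-Cit library and 123 CPM (114 to 133) in the CGG library, 4.53-fold (3.90 to 5.29) lower in the CGG-Cit library. That monocyte level rested on few cells of the gate. The 59 CGG-Cit and 182 CGG monocyte-gated cells that fell in the macrophage cluster held 171 of the 231 CGG-Cit UMIs and 606 of the 669 CGG UMIs, at 360 CPM in CGG-Cit and 408 CPM in CGG. The cells in the monocyte clusters were at 7.58 CPM (5.75 to 9.80) in the CGG-Cit library and 16.3 CPM (12.5 to 21.04) in the CGG library. The size of the monocyte difference therefore moves with how the gate meets the macrophage cluster. The CGG-Cit value was the lower one in both subsets. In the macrophage cluster the intervals overlapped (308 to 419 in CGG-Cit and 376 to 442 in CGG). For the monocyte clusters, the background also differed, with B-lineage cells at 1.67 CPM in CGG-Cit and 7.63 CPM in CGG. Its part in that difference was not tested. Mature neutrophils carried 18.9 Il1b UMIs per Il1rn UMI in the CGG-Cit library and 14.5 in the CGG library.

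Il1r1, the signalling receptor, marked receivers and was nearly absent from granulocytes. Mural cells, the pericytes and smooth muscle of vessels, held 126 CPM (71.95 to 204) in 10 CGG-Cit cells and 174 CPM (139 to 215) in 87 CGG cells. Endothelial cells were at 61.2 CPM (42.2 to 86.0) in 47 CGG-Cit cells and 80.6 CPM (67.6 to 95.5) in 201 CGG cells. In the CGG library the mural and endothelial intervals did not overlap, and in the CGG-Cit library they did. Stromal cells were lower, at 15.2 CPM (15 UMIs in 55 cells) in the CGG-Cit library and 32.4 CPM (925 UMIs in 3581 cells) in the CGG library, a log2 ratio of -1.10 with an interval of -1.94 to -0.37. The CGG-Cit value rests on 15 UMIs and on too few cells for the comparison made in other classes. A cluster of low-depth cells that could not be named, led by Gm26870, Col1a1 and Col1a2, held 1067 of the CGG stromal cells with a median of 1241 UMIs. In the named stromal clusters Il1r1 was at 13.3 CPM in 51 CGG-Cit cells and 33.4 CPM in 2301 CGG cells.

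T cells had the highest Il1r1 level among leukocyte classes of at least 100 cells in each library. The level was 18.1 CPM (12.3 to 25.7) in 329 CGG-Cit T cells and 40.3 CPM (33.2 to 48.5) in 577 CGG T cells. An Il1r1 UMI was in 24 of the CGG-Cit and 76 of the CGG T cells, so few cells carry the class value. It is a mean over kinds of T cells that are not separated here, and the gap is not one shown for each of them. Stromal markers in T cells summed to 25.2 CPM in the CGG-Cit library and 1417 CPM in the CGG library, and their part in the Il1r1 level was not tested.

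In neutrophils Il1r1 had 2 UMIs in 2692 CGG-Cit cells and 21 UMIs in 1259 CGG cells, a ratio of 0.038 (0.0044 to 0.16). Both levels, 0.09 CPM in CGG-Cit and 2.43 CPM in CGG, were near or under those of B-lineage cells and are read as background. B-lineage cells held 0.52 CPM in CGG-Cit and 2.29 CPM in CGG. Erythroid cells held more, 2.31 CPM in CGG-Cit and 3.46 CPM in CGG, and are not used as the background for this gene. NK cells held 0 UMIs in 172 CGG-Cit cells and 0 in 95 CGG cells, which allows up to 2.92 CPM in CGG-Cit and 5.91 CPM in CGG.

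Il1rap, the accessory chain shared by the IL-1, IL-33 and IL-36 receptors, was low and broad. Mature neutrophils held 29.7 CPM (25.3 to 34.7) in the CGG-Cit library and 39.1 CPM (31.4 to 48.1) in the CGG library, and immature neutrophils 15.2 CPM in CGG-Cit and 18.9 CPM in CGG. Myeloid progenitors held 12.0 CPM in CGG-Cit and 14.1 CPM in CGG, stromal cells 10.1 CPM in CGG-Cit and 11.3 CPM in CGG, T cells 9.94 CPM in CGG-Cit and 13.4 CPM in CGG and monocytes 9.20 CPM in CGG-Cit and 10.1 CPM in CGG. Erythroid cells held 1.10 CPM in CGG-Cit and 1.35 CPM in CGG, so the gene was above background in all these classes. The ratio interval included no difference in immature neutrophils, monocytes and T cells, and its upper end in mature neutrophils was 0.997.

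**Figure D2:**
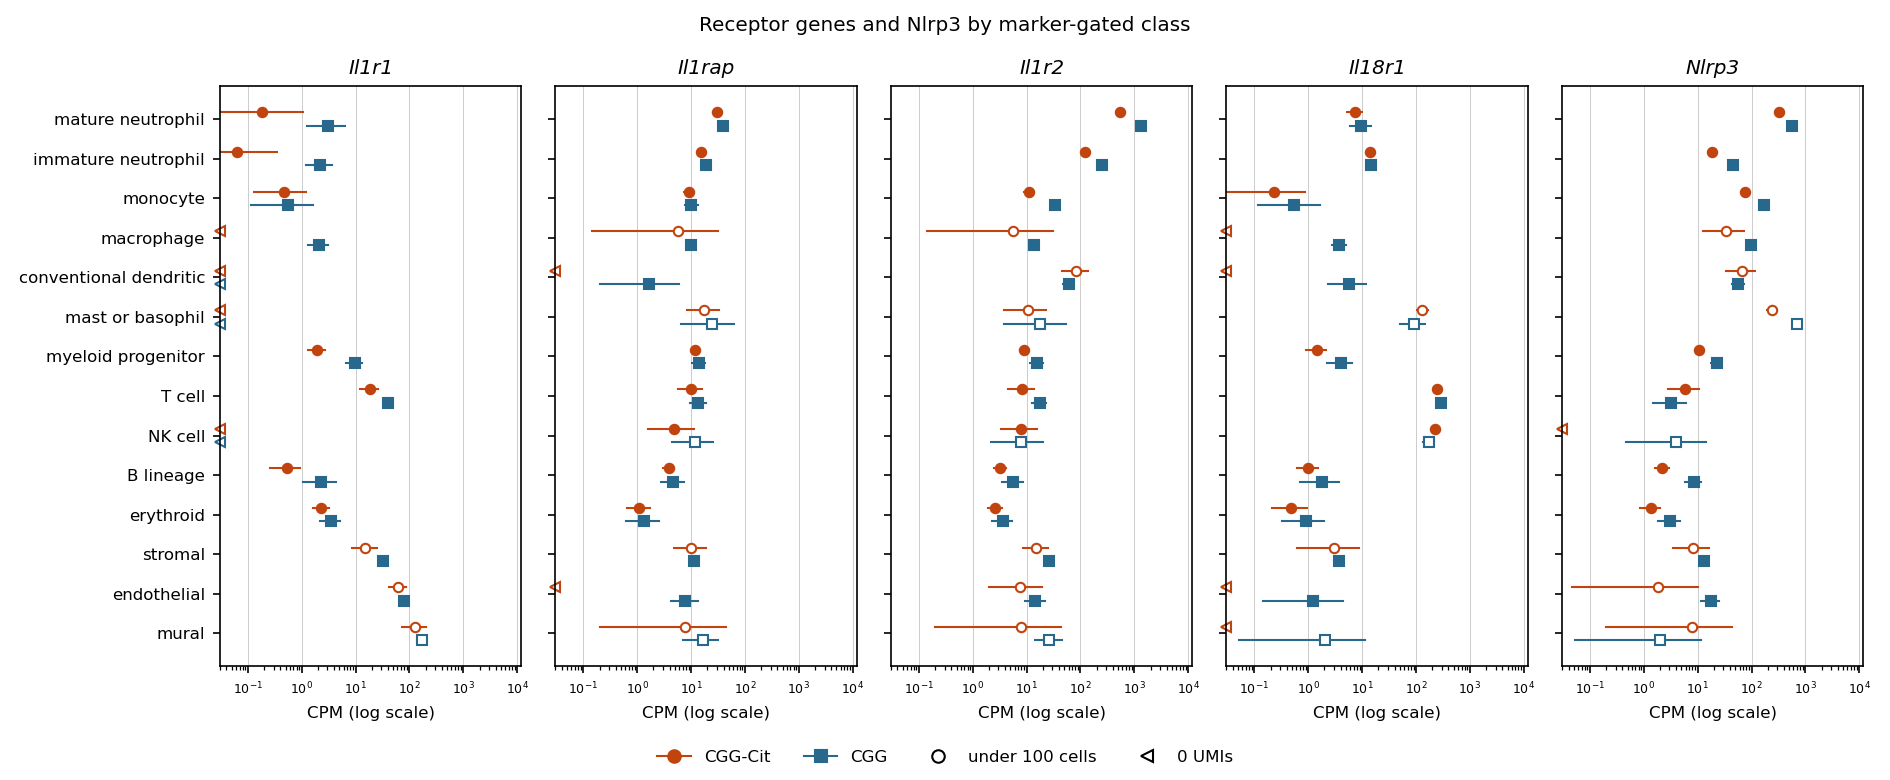
Levels of the 4 receptor genes and of Nlrp3 in the same 14 classes, drawn as CPM on a log axis with 95% Poisson intervals (CGG-Cit circles, CGG squares, open under 100 cells, triangles for 0 UMIs). Il1r1 runs highest in mural, endothelial and T cells, Il18r1 in T and NK cells, and Il1r2 in mature neutrophils, where it is at 550 CPM in the CGG-Cit library and 1346 CPM in the CGG library.

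Il1r2, the decoy receptor, was the member with the largest neutrophil difference among those with more than 100 neutrophil UMIs in each library. Neutrophils held 231 CPM (225 to 238, from 4943 UMIs) in the CGG-Cit library and 536 CPM (521 to 552, from 4629 UMIs) in the CGG library, 2.32-fold (2.23 to 2.42) lower in the CGG-Cit library. In mature neutrophils the levels were 550 CPM (531 to 570) in CGG-Cit and 1346 CPM (1299 to 1395) in CGG, 2.45-fold (2.33 to 2.57) lower in the CGG-Cit library. The median mature neutrophil carried 1 Il1r2 UMI in the CGG-Cit library (quartiles 0 and 3) and 4 in the CGG library (quartiles 2 and 7). Most CGG mature neutrophils thus carried more Il1r2 UMIs than the median CGG-Cit one. With each cell thinned to 2000 UMIs, 55.1% (52.2 to 58.0) of 1143 CGG-Cit mature neutrophils had an Il1r2 UMI, against 84.4% (80.9 to 87.5) of 495 CGG ones. Thinning left out 175 shallower CGG-Cit and 94 CGG cells. Without it the shares were 72.2% in CGG-Cit and 90.2% in CGG, at median depths of 3767.5 UMIs in CGG-Cit and 3489 UMIs in CGG. In erythroid cells, thinned alike, the shares were 0.39% in CGG-Cit and 0.90% in CGG, so the difference in neutrophils was far from this background.

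The lower Il1r2 share was present in cells with and without Il1b. In thinned mature neutrophils with an Il1b UMI, 57.8% of 928 CGG-Cit cells and 85.8% of 444 CGG cells also had one for Il1r2. Among those without an Il1b UMI the shares were 43.7% of 215 CGG-Cit cells and 72.5% of 51 CGG cells. Mature neutrophils held 8.87 Il1b UMIs per Il1r2 UMI in the CGG-Cit library and 3.80 in the CGG library, while immature neutrophils held 1.78 in both. The equal immature values do not hold at every stage: the least mature of 5 maturity bins held 429 Il1b and 504 Il1r2 UMIs in the CGG-Cit library, against 155 Il1b and 295 Il1r2 UMIs in the CGG library. As a whole, the monocyte class also held less Il1r2, at 11.2 CPM (95 UMIs) in the CGG-Cit library and 33.4 CPM (181 UMIs) in the CGG library. This was 2.98-fold (2.31 to 3.86) lower in the CGG-Cit library. In the monocyte clusters alone the levels were 9.80 CPM in CGG-Cit and 35.1 CPM in CGG. The monocyte-gated cells of the macrophage cluster went the other way, at 33.7 CPM in 59 CGG-Cit cells and 24.9 CPM in 182 CGG cells. Their intervals overlapped (19.3 to 54.8 in CGG-Cit and 17.5 to 34.3 in CGG). Conventional dendritic cells held 82.3 CPM in 27 CGG-Cit cells and 60.3 CPM in 124 CGG cells.

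Il18r1, the ligand-binding chain of the IL-18 receptor, was highest in T cells and NK cells in both libraries. It was not a gene of all lymphocytes, since B-lineage cells held less of it than neutrophils in both libraries. T cells held 244 CPM (221 to 269) in the CGG-Cit library and 287 CPM (268 to 308) in the CGG library, 1.18-fold (1.04 to 1.33) lower in the CGG-Cit library. NK cells held 221 CPM (193 to 252) in 172 CGG-Cit cells and 171 CPM (137 to 211) in 95 CGG cells. The CGG-Cit level was thus the lower one in T cells as a class, which is a mean over kinds of T cells not separated here. It was the higher one in NK cells, where the ratio was 1.29 (1.003 to 1.67) with only 95 CGG cells. The mast cell and basophil class held 130 CPM in 55 CGG-Cit cells and 90.3 CPM in 23 CGG cells. Neutrophils held 12.5 CPM in CGG-Cit and 13.2 CPM in CGG, monocytes 0.24 CPM in CGG-Cit and 0.55 CPM in CGG and erythroid cells 0.49 CPM in CGG-Cit and 0.90 CPM in CGG. Il18rap, the accessory chain, was at 114 CPM in CGG-Cit and 119 CPM in CGG in mature neutrophils, where Il18r1 was at 7.43 CPM in CGG-Cit and 9.66 CPM in CGG.

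Nlrp3, the inflammasome sensor, was lower in the CGG-Cit library in neutrophils and monocytes. Mature neutrophils held 320 CPM (305 to 336) in the CGG-Cit library and 575 CPM (545 to 607) in the CGG library, 1.80-fold (1.67 to 1.93) lower in the CGG-Cit library. Immature neutrophils held 18.1 CPM in CGG-Cit and 44.5 CPM in CGG, 2.46-fold (2.08 to 2.91) lower in the CGG-Cit library. Monocytes held 74.7 CPM (69.0 to 80.8) in CGG-Cit and 171 CPM (161 to 183) in CGG, 2.29-fold (2.07 to 2.54) lower in the CGG-Cit library, and 74.2 CPM in CGG-Cit and 183 CPM in CGG in the monocyte clusters alone. The gap was thus as wide without the gated cells of other clusters. With each cell thinned to 2000 UMIs, 14.1% of 681 CGG-Cit monocytes and 26.0% of 562 CGG monocytes had an Nlrp3 UMI, against 0.39% of CGG-Cit and 1.80% of CGG erythroid cells. Among the other classes the highest level was in the mast cell and basophil class, with 236 CPM in 55 CGG-Cit cells and 704 CPM in 23 CGG cells. Erythroid cells held 1.34 CPM in CGG-Cit and 3.01 CPM in CGG.

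The neutrophil levels were next set along maturation, because a different mix of stages could move a class mean. Neutrophils of both libraries were ordered by their mature-minus-immature marker score and cut into 5 bins of equal size, from 603 CGG-Cit and 187 CGG cells in the least mature bin to 505 CGG-Cit and 287 CGG cells in the most mature. Il1b climbed from 43.9 to 9343 CPM over the bins in the CGG-Cit library and from 53.3 to 7899 CPM in the CGG library. The CGG-Cit over CGG ratio of Il1b was 0.82, 0.62, 0.70, 0.94 and 1.18 from the first bin to the fifth, so the direction differed in the most mature bin, where the interval was 1.15 to 1.22. The Il1r2 ratio was 0.51, 0.63, 0.53, 0.43 and 0.42 over the same bins, below 1 in every one. Nlrp3 was also below 1 throughout, at 0.18, 0.49, 0.58, 0.71 and 0.59. Il1f9 was at 0.48, 0.77, 0.81, 1.15 and 1.01, with an interval of 1.01 to 1.30 in the fourth bin. Il1rn was at 0.57, 1.03, 0.80, 0.81 and 0.74. Decoy receptor and sensor transcripts were thus lower in the CGG-Cit library in each bin, whereas Il1b was lower in the first 4 bins and higher in the fifth. In the first bin Nlrp3 was at 2.15 CPM in CGG-Cit and 12.0 CPM in CGG, near the B-lineage 2.19 CPM in CGG-Cit and 8.39 CPM in CGG. First-bin Il1b was not far above the B-lineage 20.4 CPM in CGG-Cit and 37.4 CPM in CGG. The first-bin directions of Nlrp3 and Il1b thus rest on levels near background. The bins do not make the stages equal: Cxcr2, a marker of the mature stage, was at 218.5 CPM in CGG-Cit and 121 CPM in CGG cells of the second bin. The part of such differences in the ratios was not tested.

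**Figure D3:**
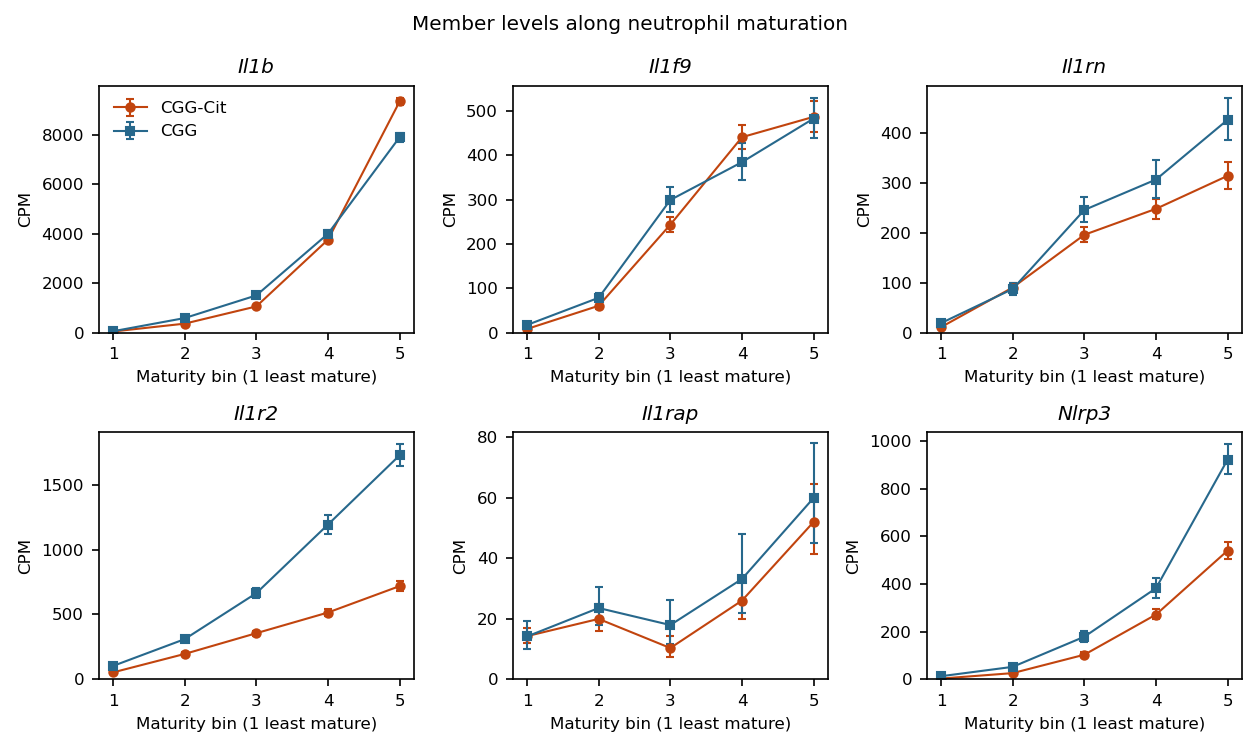
Levels of 6 members (CPM, linear axes from 0, 95% Poisson intervals) in 5 neutrophil maturity bins, from the least mature to the most mature, with CGG-Cit as circles and CGG as squares. The Il1r2 and Nlrp3 lines of CGG-Cit lie below those of CGG in every bin, while the Il1b line of CGG-Cit ends above, at 9343 CPM in CGG-Cit against 7899 CPM in CGG.

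The share of each gene's UMIs by class shows where the transcripts were in each library, and it moves with the number of cells of each class. Neutrophils held 79.8% (79.4 to 80.2) of all Il1b UMIs in the CGG-Cit library and 43.9% (43.4 to 44.5) in the CGG library, a difference of 35.9 percentage points (35.2 to 36.6). They were 26.9% of cells in the CGG-Cit library and 11.4% in the CGG library. Monocytes held 13.2% in CGG-Cit and 22.0% in CGG, and macrophages 0.0080% in CGG-Cit and 12.5% in CGG. Il1b thus came mainly from neutrophils in the CGG-Cit library and from several myeloid classes in the CGG library. For Il1rn, neutrophils held 84.4% of UMIs in the CGG-Cit library, whereas in the CGG library they held 23.7% and macrophages 43.1%. For Il18, monocytes (39.4%) and B-lineage cells (28.6%) led in the CGG-Cit library, and stromal cells (54.1%) and macrophages (25.5%) in the CGG library. For Il1r1, the 197 CGG-Cit UMIs were spread over erythroid cells (19.3%), endothelial cells (16.8%), myeloid progenitors (16.2%), T cells (15.7%) and stromal cells (7.61%). CGG-Cit erythroid cells (2.31 CPM) and myeloid progenitors (1.92 CPM) had levels far under those of CGG-Cit endothelial cells (61.2 CPM). Both were above CGG-Cit B-lineage cells (0.52 CPM) and neutrophils (0.09 CPM), and the origin of these UMIs was not tested. In the CGG library stromal cells held 62.9% of the Il1r1 UMIs. Il1r2 (89.9% in CGG-Cit and 72.8% in CGG) and Il1f9 stayed mainly in neutrophils in both.

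**Figure D4:**
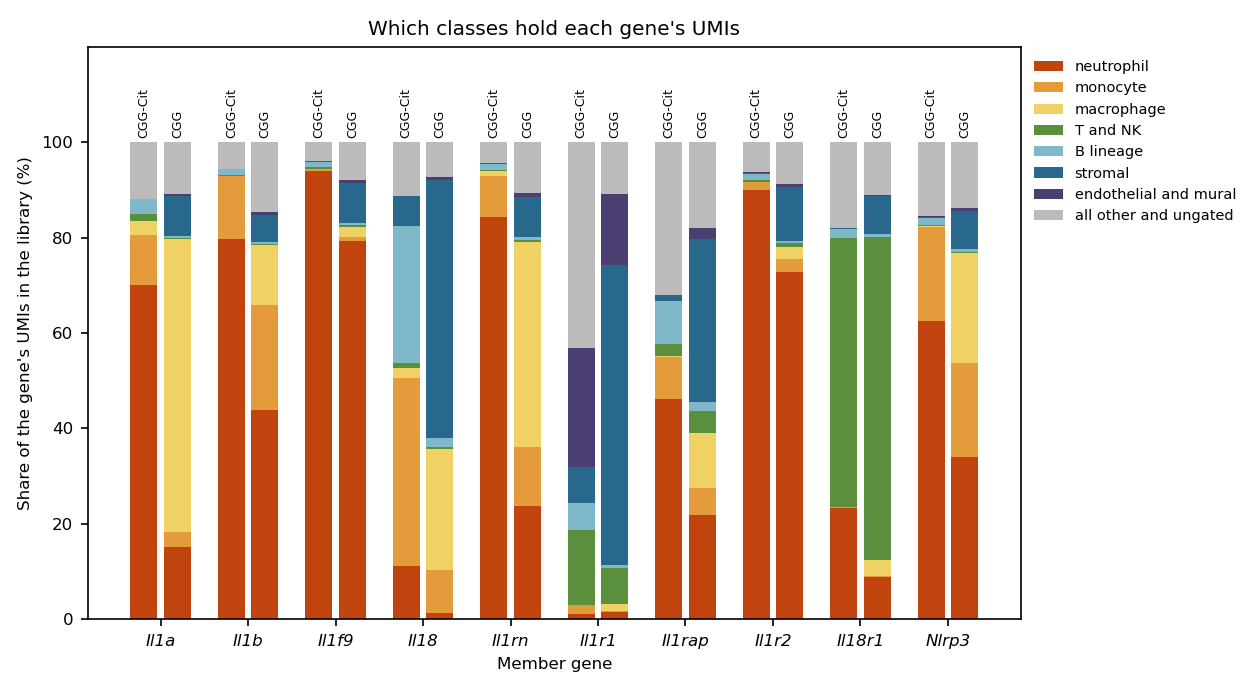
Stacked bars of the share of each member's UMIs held by each class (%, all kept cells of a library make 100%), with the CGG-Cit bar left of the CGG bar for every gene. The neutrophil part of Il1b is 79.8% in the CGG-Cit bar and 43.9% in the CGG bar, and the stromal part of Il1r1 is 7.61% in CGG-Cit and 62.9% in CGG.

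Counted by a size rule (at least 2-fold, with at least 20 UMIs over both libraries together), 3 of 10 members were lower in CGG-Cit neutrophils (Il1a, Il1r1 and Il1r2) and 0 were higher, where 10.6% of 10781 genes were lower and 1.61% higher. The median log2 ratio of the members was -0.42, against -0.09 over all these genes, and all 10 were below 0. In mature neutrophils 2 of 9 members were lower (Il1a and Il1r2) and 0 higher, against 9.86% and 3.21% of 7454 genes. In immature neutrophils 2 of 9 were lower (Il1a and Nlrp3) and 0 higher, against 9.48% and 1.58% of 10306 genes. In monocytes 5 of 8 members were lower (Il1a, Il1b, Il1rn, Il1r2 and Nlrp3) and 0 higher, against 7.65% and 2.81% of 10618 genes, with a member median of -1.20 and an all-gene median of 0.02. The monocyte share was thus well above its background and the share in mature and immature neutrophils less so. B-lineage cells, which make little of these genes, had 3 of 9 members lower (Il1rn, Il1r1 and Nlrp3) and 0 higher, against 8.8% and 1.24% of 11437 genes. T cells had 3 of 6 lower (Il1rn, Il1r1 and Il1r2) and 0 higher, against 6.54% and 2.12% of 9280 genes. Myeloid progenitors had 5 of 9 lower (Il1r1, Il1rn, Nlrp3, Il18r1 and Il18) and 0 higher, against 8.7% and 1.5% of 11415 genes. Erythroid cells had 2 of 7 lower (Il1rn and Nlrp3) and 0 higher, against 5.1% and 19.5% of 9699 genes. Members were thus lower also in classes that serve as background here. The counts describe 1 library per group and name no gene as changed.

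The pathway around the members was read from lists of genes. Of all genes compared, 10.6% were lower and 1.61% higher in neutrophils, and 7.65% lower and 2.81% higher in monocytes. Of 16 listed IL-1 family genes beyond the members, 12 were matched by symbol and 6 could be compared in neutrophils, of which 3 were lower and 0 higher (median log2 ratio -0.96). They were Il33, an alarmin ligand (0.33 CPM in CGG-Cit and 7.06 CPM in CGG neutrophils), Il1rl1, its receptor (0.93 CPM in CGG-Cit and 3.13 CPM in CGG), and Il1rl2, the IL-36 receptor (0.56 CPM in CGG-Cit and 1.62 CPM in CGG). All 3 were scarce in neutrophils, and Il33 was a stromal gene, at 328 CPM in CGG-Cit and 310 CPM in CGG stromal cells. In monocytes 2 of 5 were lower, Il33 (1 UMI in CGG-Cit and 22 in CGG) and Il18bp, the IL-18 binding protein (4.72 CPM in CGG-Cit and 13.8 CPM in CGG).

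Inflammasome and processing genes stayed closer to the median of all genes. Of 15 compared in neutrophils, 2 were lower, a share near the 10.6% of all genes, and 0 were higher, with a median of -0.20. The lower ones were P2rx7, an ATP-gated channel (7 UMIs in CGG-Cit and 14 in CGG), and Nlrc4, another sensor (19 UMIs in each library). In monocytes 1 of 17 was lower, near the 7.65% of all genes, with a median of -0.16. It was Txnip, which binds thioredoxin (78.5 CPM in CGG-Cit and 158 CPM in CGG). Casp1, the IL-1β-cleaving protease, was at 60.8 CPM in CGG-Cit and 54.2 CPM in CGG monocytes.

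Signalling genes downstream of the receptor had medians below 0 in most classes. The medians were -0.46 in B-lineage cells, -0.42 in myeloid progenitors and -0.27 in T cells, so the lean was not one of neutrophils and monocytes alone. Of 24 compared in neutrophils, 3 were lower, a share near the 10.6% of all genes, and 0 higher, with a median of -0.39: Nfkb2, an NF-κB subunit (12.3 CPM in CGG-Cit and 37.1 CPM in CGG), Tnfaip3, a ubiquitin-editing inhibitor (68.0 CPM in CGG-Cit and 164 CPM in CGG), and Nfkbie, an NF-κB inhibitor (18.8 CPM in CGG-Cit and 45.1 CPM in CGG). In monocytes 5 of 24 were lower, against 7.65% of all genes, and 0 higher, with a median of -0.37. They were Tnfaip3 (46.6 CPM in CGG-Cit and 175 CPM in CGG), Nfkbia, the IκBα gene (211 CPM in CGG-Cit and 622 CPM in CGG), Nfkbiz (117 CPM in CGG-Cit and 321 CPM in CGG), Nfkbie (28.4 CPM in CGG-Cit and 71.96 CPM in CGG) and Irak2, a receptor-associated kinase (28.9 CPM in CGG-Cit and 62.2 CPM in CGG). Several of these are themselves NF-κB target genes.

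Genes known to respond to IL-1 had the lowest medians of the 5 lists. In neutrophils 9 of 15 were lower and 0 higher, with a median of -1.47, led by the chemokine genes Ccl7 (0.42 CPM in CGG-Cit and 28.3 CPM in CGG) and Cxcl1 (0.33 CPM in CGG-Cit and 14.8 CPM in CGG). Ccl2 (7.06 CPM in CGG-Cit and 31.0 CPM in CGG), the adhesion gene Icam1 (1.59 CPM in CGG-Cit and 7.64 CPM in CGG), the growth factor gene Csf3 (1.496 CPM in CGG-Cit and 6.25 CPM in CGG) and Tnfaip6 (21.04 CPM in CGG-Cit and 63.2 CPM in CGG) followed. In monocytes 8 of 12 were lower, with a median of -1.46, among them Cxcl2 (173 CPM in CGG-Cit and 1003 CPM in CGG), Ccl7 (17.0 CPM in CGG-Cit and 98.2 CPM in CGG), Cxcl1 (0.71 CPM in CGG-Cit and 28.8 CPM in CGG), Vcam1 (0.94 CPM in CGG-Cit and 11.3 CPM in CGG), Icam1 (12.7 CPM in CGG-Cit and 45.0 CPM in CGG) and Tnfaip6 (4.95 CPM in CGG-Cit and 15.5 CPM in CGG). The same list was also low in classes that make little of it, with 9 of 13 lower and a median of -2.29 in B-lineage cells and 8 of 10 lower and a median of -2.53 in erythroid cells, where the all-gene median was 0.40. Ccl7 was at 0.52 CPM in CGG-Cit and 29.5 CPM in CGG B-lineage cells, close to its neutrophil levels, and at 243 CPM in CGG-Cit and 416 CPM in CGG stromal cells. Stromal markers, all 12 of them detected in CGG neutrophils, summed to 33.2 CPM in CGG-Cit and 1242 CPM in CGG neutrophils. Their part in the list's neutrophil values was not tested. Cxcl2 and Icam1 in monocytes were above their B-lineage levels of the same library.

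Transcription factors of myeloid Il1b expression were mixed. In neutrophils 1 of 9 was lower, a share near the 10.6% of all genes, and 1 higher. The lower one was Bhlhe40, a basic helix-loop-helix factor (22.95 CPM in CGG-Cit and 71.7 CPM in CGG). The higher one was Fos, an immediate early gene (2471 CPM in CGG-Cit and 1230 CPM in CGG, 2.01-fold). In monocytes Bhlhe40 was again the 1 of 9 that was lower (19.6 CPM in CGG-Cit and 91.1 CPM in CGG), beside 7.65% of all genes. The medians were -0.20 in neutrophils and -0.27 in monocytes.

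**Figure D5:**
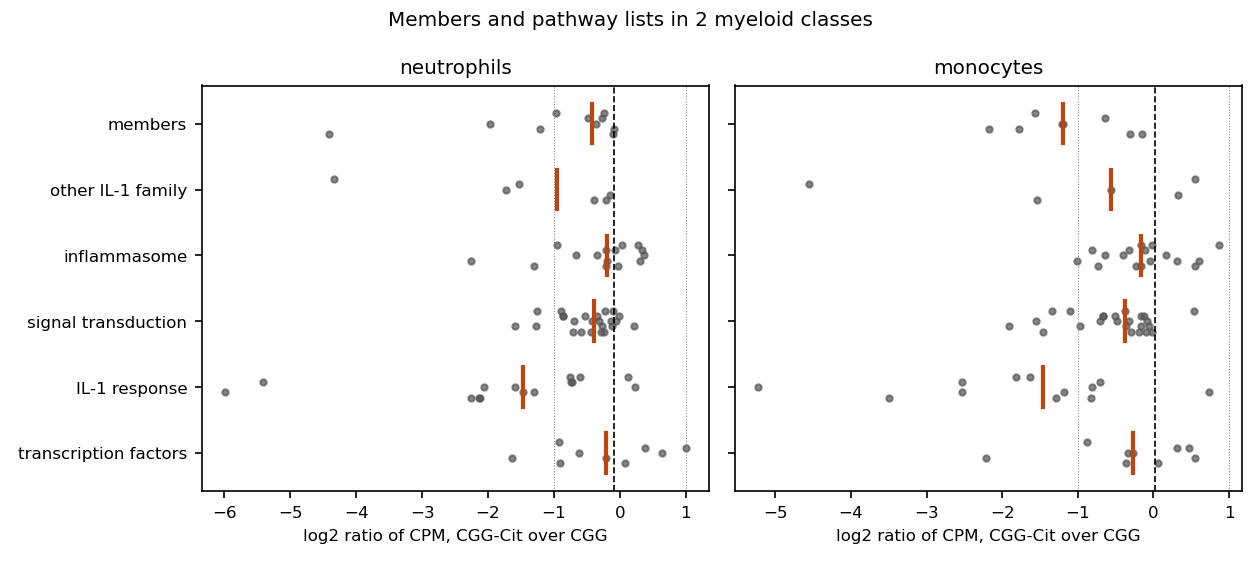
Log2 ratios of CPM (CGG-Cit over CGG, 0.5 UMI added to each sum) for the members and 5 gene lists in neutrophils and monocytes, 1 point per gene with at least 20 UMIs. Red bars are list medians, the dashed line is the median of all genes and dotted lines mark 2-fold. The members' median is -0.42 in neutrophils and -1.20 in monocytes.

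Genes with the most similar profile were ranked over 22 class-libraries of at least 50 cells and 6954 genes, which share libraries and depth. Il1b was closest to Pirb, an inhibitory myeloid receptor (r = 0.93), Nlrp3 (r = 0.92) and Nfam1 (r = 0.92). Il1rn was closest to Cd300ld (r = 0.94), which is also a marker of the mature stage, Pla2g7 (r = 0.94) and Ptafr, the platelet-activating factor receptor (r = 0.92). Il1r1 was closest to Hey1 (r = 0.93), a Notch target gene, Spry1 (r = 0.92) and Epas1 (r = 0.92), which encodes HIF-2α. These are descriptions over classes and not tests.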

How the data were processed

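The authors deposited unnormalized UMI counts for each gene in each barcode, made with cellranger 4.0.0 per the file headers; the submitters' processing notes name Cell Ranger 3.0 and mm10. The labels do not say which kit version was used. Barcodes with at least 200 genes and at most 20% mitochondrial UMIs were kept. Scrublet's own threshold removed 537 CGG-Cit cells (5.10%); it marked 1 CGG cell, so the 1231 highest scores (10.0%, from 0.8% per 1000 barcodes) were removed there.

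Each cell was gated by its marker scores: a class had to lead the next by 1.25 times with at least 3 markers detected. Neutrophils were called mature where the mature score exceeded the immature one (49.0% of CGG-Cit and 46.8% of CGG neutrophils; 4.79% of CGG-Cit and 3.73% of CGG neutrophils lay within 0.05 of this cut). The T cell receptor constant genes on the marker lists were not used here, and a split of T cells and the genes most like Il18r1 are not reported here. UMIs were summed per class and library. Intervals are exact Poisson (CPM), exact conditional binomial (ratios), Clopper-Pearson (shares) and Newcombe (difference of shares), at 95%; a count of 0 allows up to 3 UMIs. With 1 library per group no test was possible. The interval code was tested on simulated data. Promoters came from RefSeq (all 10 members matched) and positions from GENCODE.

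Members and lists were chosen with earlier results of these data known. All members are named, as are list genes past 2-fold in neutrophils or monocytes (up to 6 per list and class by the interval bound nearest to 1) and the 3 genes most like Il1b, Il1rn and Il1r1; others named (Casp1, Il18rap) were chosen after their values were seen. Macrophages were not compared, with 17 CGG-Cit cells. Likeness is Pearson's r of log2(CPM + 10), among genes reaching 50 CPM. Alternatives were Leiden clusters (scanpy 1.11.5), 1 more marker, doublets kept, 500 genes, median-of-ratios factors, free RNA subtracted and no UMI minimum. Python 3.11.15 and scipy 1.17.1 were used.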

Additional observations from a re-analysis of the deposited data

How the results depend on the processing

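Over the 5 main results, the log2 ratio of Il1b in neutrophils (-0.26) kept its sign under every alternative run but moved to -0.34 with Leiden clusters, -0.33 with doublets kept, -0.18 with median-of-ratios factors and -0.030 with a common mix of the 5 maturity bins, which was chosen after seeing the data; the cause was not tested. The common mix equalizes the bin shares only, since stage markers still differ within bins. In mature neutrophils the Il1b log2 ratio (-0.068) reversed to 0.038 with median-of-ratios factors, which shift the class by -0.11. The neutrophil share of Il1b UMIs differed by 35.0 percentage points with doublets kept, against 35.9. Il1r1 in stromal cells stayed between -1.46 and -1.04, and the count of 3 members past 2-fold was 4 with doublets kept and 3 otherwise. Of 295 further values for 48 other member and class pairs, 277 moved by less than counting error, 18 moved by more, and 282 kept their sign. The largest such move was Il1rn in monocytes, at -0.82 with Leiden clusters against -2.18. Il1r2 in neutrophils stayed between -1.27 and -1.05. No paired analysis was possible because each group has 1 library.

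With 1 library per group, the hydrogel, the animals and the library preparation cannot be told apart. The CGG-Cit library holds 17 macrophages, 55 stromal cells and 47 endothelial cells, so levels there rest on few UMIs. Stromal markers summed higher in CGG than in CGG-Cit neutrophils, monocytes, T cells, B-lineage cells and erythroid cells.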
